A study of Rattus norvegicus with 4 samples.

Results

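The apolipoproteins and lipoprotein receptors of rat mesenteric white adipose tissue were read from 7 of the 1185 cDNA spots of a nylon filter array. The spots were taken, whatever their level, for a gene name that holds the words apolipoprotein or lipoprotein receptor. They were apolipoprotein A-I (array code A09j), apolipoprotein A-IV (A09k), apolipoprotein D (A09n), clusterin, also called apolipoprotein J (C12l), the apolipoprotein B mRNA editing protein APOBEC-1 (C13d), the VLDL receptor (D13g) and the endocytic receptor LRP2 or megalin (B13i). Tissue came from female Wistar rats given oleoyl-estrone (OE), an acylated estrogen that lowers body fat, by oral gavage at 10 μmol per kg of body weight and day in 0.2 ml of oil for 2 days, or from control rats given the oil alone, and was taken at 48 h. Each group had 2 arrays, with the RNA of 1 rat on each, so the spread given here is between 2 animals, each with its own tissue sample and array. The comparison asks which of these transcripts differed in the fat depot after the short OE treatment.

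Lipoproteins carry triacylglycerols and cholesterol in the blood, and apolipoproteins are the proteins of their surface. ApoA-I is the main protein of high-density lipoprotein and ApoA-IV a component of chylomicrons, and in the rat both are made by the intestine and the liver. ApoD and clusterin are made in many tissues, adipose tissue included. Lipoprotein receptors bind lipoproteins at the cell surface and bring them, or the lipid that lipoprotein lipase releases from them, to the cell.

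Intensities were given after subtraction of each array's background, which was 60 and 54 on control 1 and control 2 and 61 on both OE arrays. A spot counted as detected from 2 times that background, 120, 108, 122 and 122 in the same order, and 152 to 246 of the 1185 spots were detected on an array. The median adjusted intensity was 14, 9, 22 and 17, and values were divided by it, so that the unit of scaled values is the array median. The arrays differed in the genes of other cell types too. The summed level of 5 adipocyte genes was 264, 2239, 426 and 522 array medians in the same order. Nearly all of it was 1 spot, FABP4, at 252.3, 2114.8, 400.5 and 500.7. The summed level of 11 lymphocyte genes was 128, 12.3, 142 and 65.0, with 5, 0, 6 and 3 of them detected and 4 of them at 0 on control 2. Leptin, a defining product of fat cells, was not detected on any array, whereas the fatty acid-binding protein FABP4 was detected on all 4. In whole tissue, fewer cells of a type and less RNA per cell cannot be told apart.

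Of the 7 transcripts, clusterin was the only one detected on all 4 arrays. ApoA-I and ApoA-IV were detected on OE 2 and on no other array, and ApoD, APOBEC-1 and both receptors on none. Of all 1185 spots, 100 were detected on all 4 arrays and 900 on none. For all members but clusterin, therefore, the control level is known only as lying under the limit.

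**Figure D1:**
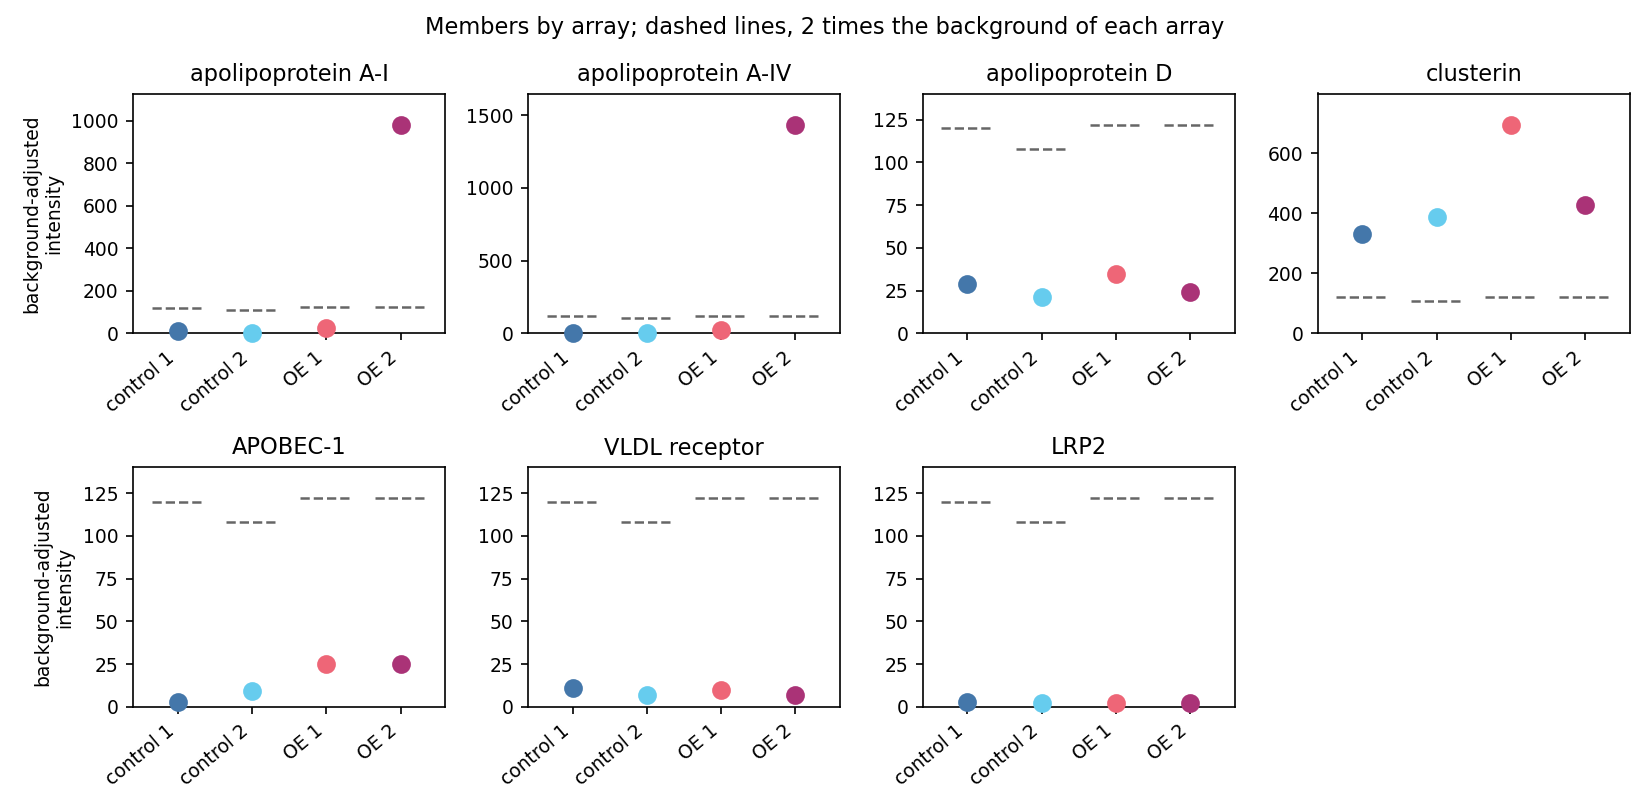
Background-adjusted intensity (linear scale, with its own range in each panel) of the 7 transcripts on each of the 4 arrays, with 2 times the background of each array as a dashed line. Clusterin lay above the line on all 4 arrays, ApoA-I and ApoA-IV on OE 2 alone, and the other 4 transcripts on none.

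ApoA-I and ApoA-IV were the 2 members with the largest spread between arrays. The adjusted intensity of ApoA-I was 10 and 0 in the control rats, 25 on OE 1 and 981 on OE 2. Only the last of these was above the limit. That of ApoA-IV was 5, 5, 22 and 1433, and again OE 2 stood alone. In array medians OE 2 read 57.7 for ApoA-I and 84.3 for ApoA-IV, at least 10.3 and 15.1 times the lowest level detected on OE 1. The arrays of the treated group thus differed from each other by at least that much. Animal, tissue sample and array cannot be told apart in this difference. The ratio of the OE mean to the control mean was 62.0 for ApoA-I and 93.5 for ApoA-IV. The methods of the study use such a ratio, but here low values were raised to a floor and the study's filter for precise measurements was not applied. With the floor at the 1st and the 25th percentile the ratio was 74.9 and 47.3 for ApoA-I and 93.5 and 78.6 for ApoA-IV. With OE 1 as the sole treated array it was 2.39 for ApoA-I and 2.19 for ApoA-IV, with all 3 arrays then read under the limit. Scaled to the housekeeping genes the ratios were 33.4 and 57.6, against 8.05 and 11.1 without the subtraction of background, and 19.8 and 20.6 with geometric means. With the control values raised to the lowest level detected on their arrays and OE 1 taken as 0, the ratio of the means was at least 2.77 for ApoA-I and 4.05 for ApoA-IV, a bound carried by OE 2 alone. On means of log2 values, with OE 1 as read, the same comparison gave 0.788 and 0.894, under 1, so on the scale of the test no fold between the groups is stated. On the log2 scale the differences were 4.30 (SE 1.95, 95% interval -0.70 to 9.31) and 4.37 (SE 2.11, -1.07 to 9.80), and limma gave an adjusted p of 0.957 for both.

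The genes of ApoA-I and ApoA-IV are neighbours on rat chromosome 8, with 1 annotated gene, that of apolipoprotein C-III, between them. The 250 bases before the start of Apoa4 are shown because this gene had the higher of the 2 signals on OE 2 and because the window holds a motif of a factor of intestine and liver. They are at chr8:55435529-55435778 on the plus strand of GRCr8 (RefSeq), 5′ to 3′, with the letters AAAGTCCA, the core of the element preferred by the nuclear receptor HNF4, in capitals:
Apoa4: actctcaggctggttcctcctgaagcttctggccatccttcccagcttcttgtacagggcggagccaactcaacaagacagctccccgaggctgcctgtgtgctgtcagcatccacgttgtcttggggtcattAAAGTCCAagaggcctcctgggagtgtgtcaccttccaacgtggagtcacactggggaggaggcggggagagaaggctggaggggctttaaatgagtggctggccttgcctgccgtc
The first capital lies 117 bases before the start. These letters, searched on both strands and chosen with the sequence in view, were found in 397 of 33469 promoter windows of the same length (1.19%). They were not in the windows of Apod, Apobec1, Vldlr and Lrp2, the other 4 members for which a window was at hand. Nor were they in those of Fabp1 and Fabp2, the genes of the liver and intestinal fatty acid-binding proteins, whose levels are given below. The letters AGGTCA, a half-site of nuclear receptors, were in 14.1% of all windows. They were in none of the 5 windows of members and in that of Fabp1, but not in that of Fabp2. A match of letters is a description of the sequence and no measure of binding.

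Only 7 of the 1185 spots (0.591%) were detected on OE 2 and on no other array, and 2 of the 7 members were among them. The other 5 included both fatty acid-binding proteins of the gut epithelium. The liver form, L-FABP, which is also abundant in enterocytes, read 0, 0, 9 and 525, and the intestinal form, I-FABP, read 12, 6, 11 and 1690. Both shared with the apolipoproteins a level on OE 2 far above that of the other 3 arrays. The remaining 3 were the cell surface antigen CD24 at 264 on OE 2, phospholipase C beta 3 at 145 and the steroid hydroxylase CYP17 at 125. Likeness was measured as the root mean square distance of the log2 values over the 4 arrays after removal of each gene's mean, among the 282 other spots detected on at least 1 array. L-FABP was the nearest pattern to ApoA-IV, at 0.323, and to ApoA-I, at 0.632, and I-FABP came next at 0.802 and 0.985. Beyond these the nearest were CYP17 at 1.86 for ApoA-IV and CD24 at 1.54 for ApoA-I. The log2 values were taken after low values were raised to the floor, as were both control values of L-FABP. ApoA-I, ApoA-IV, L-FABP and I-FABP were all under the limit on the other 3 arrays. Their small distances therefore largely restate the detection on OE 2 alone. The order of L-FABP before I-FABP rests on values under the limit and ranks no likeness between them.

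Among the 6 genes of an intestine list taken by keyword, L-FABP and I-FABP were detected on OE 2 and none on the other arrays. The summed level of the list was 133 array medians on OE 2 and at most 3.50 on the others. Nearly all of it on OE 2 was these 2 spots, I-FABP at 99.4 and L-FABP at 30.9. Sucrase-isomaltase, the defining enzyme of the brush border, read 0, 2, 2 and 14. Alkaline phosphatase, whose spot name gives no tissue form, read 23, 17, 29 and 35. The hormones cholecystokinin and gastrin were 0 on OE 2, so these 4 genes were all under the limit there. None of 5 liver genes was detected on any array, and their summed level was 1.73 to 3.11 array medians. These were fibrinogen beta, alpha-1-inhibitor III, CYP2C7, CYP2C11 and CYP2C22. The list was not chosen for the liver of female rats, and how well it would register such RNA was not tested. None of 5 genes of the exocrine pancreas was detected either, with a summed level of 0.682 to 1.94. The part of RNA of another tissue in the ApoA-I and ApoA-IV signals was not tested. By array code the 2 apolipoprotein spots are next to each other, and the spots on either side, A09i and A09l, read 58 and 20 on OE 2, under the limit. Other spots nearby on the filter were not read, and a spread of signal between the 2 apolipoprotein spots was not tested.

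**Figure D2:**
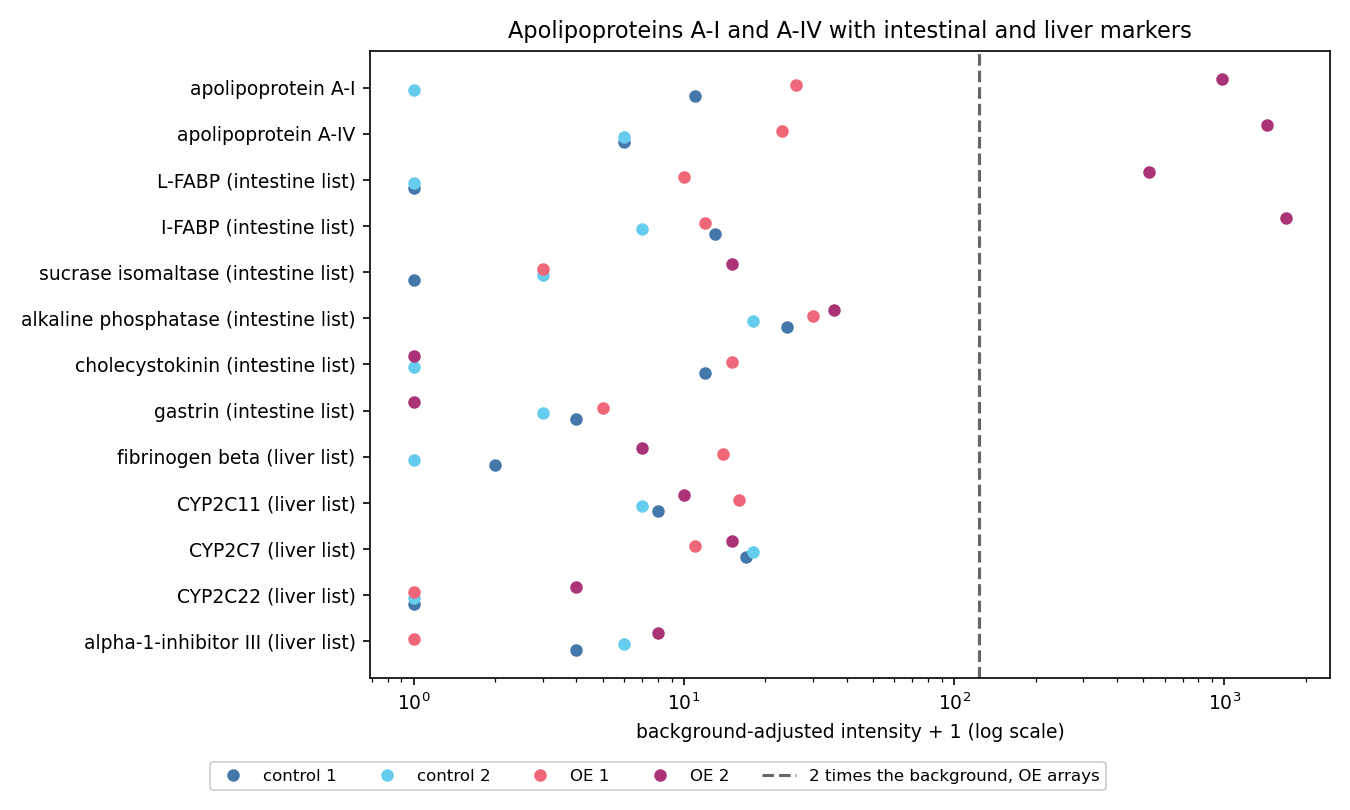
Background-adjusted intensity plus 1 (log scale) of ApoA-I, ApoA-IV and the genes of the intestine and liver lists on each array, with 2 times the background of the OE arrays as a dashed line. On OE 2 both apolipoproteins and the fatty acid-binding proteins L-FABP and I-FABP lay right of the line, from 525 to 1690. The other genes of the intestine list and all genes of the liver list lay left of it on every array.

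Clusterin, a secreted chaperone that associates with high-density lipoprotein, was the member measured best. Its adjusted intensity was 331 and 388 in control and 695 and 428 in OE, with both OE arrays above both controls. In array medians the values were 23.6, 43.1, 31.6 and 25.2, and the groups overlapped. The means were 33.4 ± 13.8 in control and 28.4 ± 4.54 in OE (SD, n = 2 each), a ratio of 0.850, and the log2 difference was -0.18 (SE 0.64, 95% interval -1.82 to 1.46, limma adjusted p = 0.989). The difference was smaller than the spread between the control arrays, and the interval includes log2 differences of either sign larger than 1.

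The sign of the clusterin difference turned with the scaling. It was 0.61 with no scaling, 0.11 with scaling to the genes detected on all 4 arrays, and -0.91 with scaling to the housekeeping genes, while the median difference of all genes was 0.74, 0.23 and -0.75 under the same scalings. Set against that median, the difference was between -0.15 and -0.04 under all 6 scalings. All of these but quantile normalization divide each array by a constant, which moves clusterin and the median alike. The narrow range is therefore nearly fixed by construction and is no measure of stability. It was 0.31 without the subtraction of background and 0.34 with a normexp correction, 0.34 and 0.37 above the median of all genes. Leaving out control 2 gave 0.25 and leaving out control 1 gave -0.61. Relative to the geometric mean of the other 99 spots detected on all 4 arrays, clusterin was 0.628, 0.686, 0.721 and 0.693, with a coefficient of variation of 5.71% over the 4 arrays, against 28.7% in array medians. By that measure the group means were 0.657 ± 0.0409 in control and 0.707 ± 0.0203 in OE, a ratio of 1.08. The coefficient of variation was not computed for the 99 spots, so whether 5.71% is low among them was not tested. The spots with the pattern nearest to clusterin were the G protein subunit G-alpha-s, at a distance of 0.0489, the kinase PCTAIRE1 at 0.0592 and the adaptor protein 14-3-3 zeta/delta at 0.111. Of these, PCTAIRE1 read 66, 72, 136 and 77 and was detected on OE 1 alone.

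**Figure D3:**
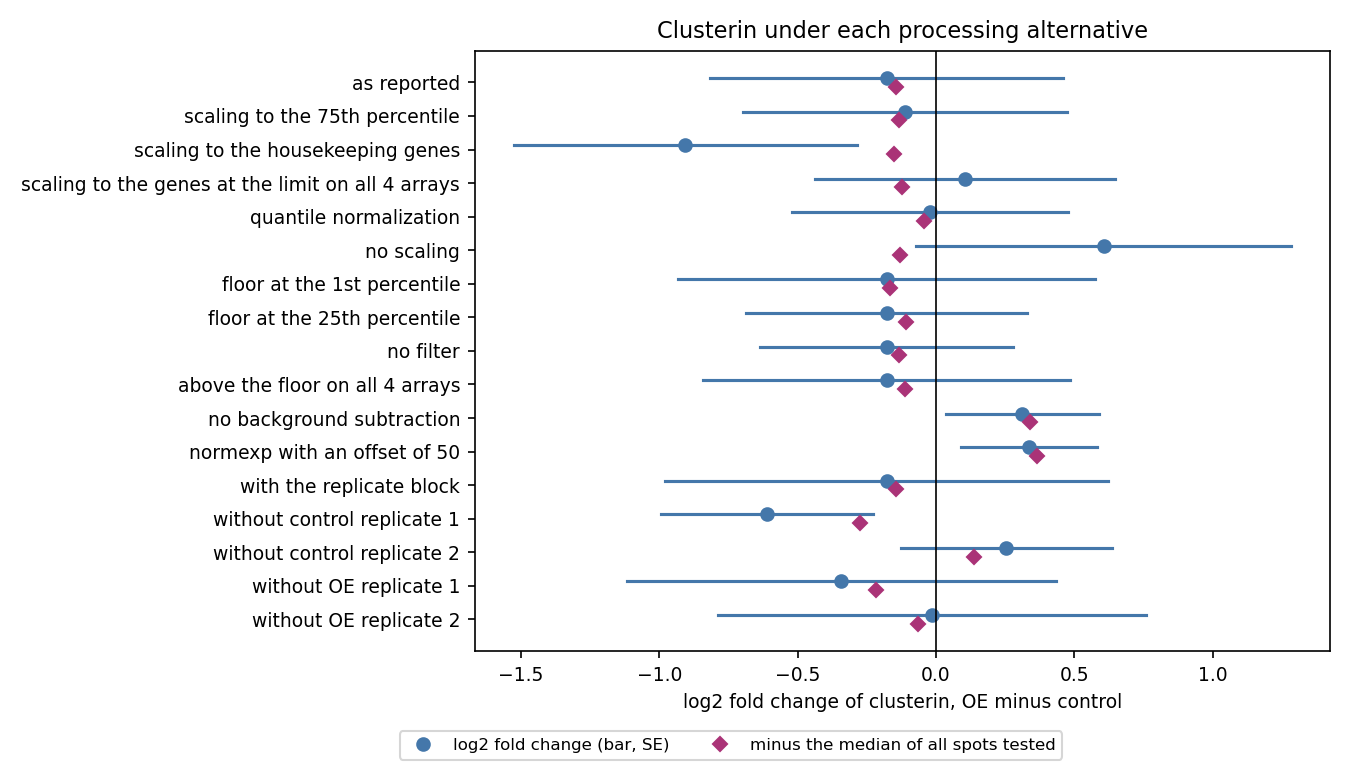
Log2 difference of clusterin, OE minus control, as reported and under each processing alternative, as measured (circles, with the SE as a bar) and after subtraction of the median difference of all spots tested (diamonds). As measured it ran from -0.91 to 0.61. Relative to the median of all genes under the 6 scalings it lay between -0.15 and -0.04, a range that division of each array by a constant leaves nearly fixed.

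The receptors were read under the limit on every array. The VLDL receptor, which adipose tissue uses together with lipoprotein lipase to take up triacylglycerol-rich particles, read 11 and 7 in control and 10 and 7 in OE. Before scaling the groups overlapped. After scaling the values were 0.786 and 0.778 in control, which differed by less than those of any other tested member, and 0.455 and 0.412 in OE, a ratio of 0.554 and a log2 difference of -0.85 (SE 0.57, 95% interval -2.32 to 0.61, limma adjusted p = 0.957). The ratio was 0.527 to 0.581 when 1 array was left out in turn. The difference arose in the division by the array medians, 14 and 9 in control against 22 and 17 in OE, and the ratio was 0.944 with no scaling, 0.896 without the subtraction of background and 0.327 with scaling to the housekeeping genes. LRP2, the large endocytic receptor of kidney epithelium, which also binds clusterin, read 3, 2, 2 and 2. It was under the 25th percentile of spots on every array and was not tested.

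ApoD, a lipocalin that binds small lipophilic molecules, read 29, 21, 35 and 24, with OE 1 highest and the groups overlapping. In array medians it was 2.07 and 2.33 in control and 1.59 and 1.41 in OE, both OE arrays below both controls. The ratio was 0.682 and the log2 difference -0.55 (SE 0.57, 95% interval -2.02 to 0.92, limma adjusted p = 0.957). Without scaling the log2 difference was 0.23, so the direction rested on the division by the array median. The spots of ApoD and the VLDL receptor lay between the 25th and 75th percentile of spots on every array.

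APOBEC-1, the cytidine deaminase that edits apolipoprotein B mRNA in the intestine and, in rats, the liver, read 3 and 9 in control and 25 on both OE arrays. The scaled values were 0.214 and 1.00 against 1.14 and 1.47, of which the first was under the floor of 0.235 set for the test. The ratio of 2.11 and the log2 difference of 1.41 (SE 0.88, 95% interval -0.84 to 3.67, limma adjusted p = 0.957) therefore rested on signals under the limit. Against control 1 alone the ratio was 5.54 and against control 2 alone 1.30, so that it lay on either side of 1.5 with the control array used. It was 1.16 without the subtraction of background, 4.17 with no scaling and 1.46 with scaling to the housekeeping genes. Its values on OE 1 and OE 2 were alike, unlike those of ApoA-I and ApoA-IV.

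Of the 7 members, 6 entered the test. ApoD, clusterin, ApoA-IV and the VLDL receptor were above the floor in both groups, while ApoA-I and APOBEC-1 entered only through the OE arrays, which favours higher values there. A ratio under 0.5 was found for 0 members, against 18.3% of all 922 spots tested, and a ratio over 1.5 for 3, ApoA-I, ApoA-IV and APOBEC-1, against 18.9%. Both OE arrays were below both controls for 2 members, ApoD and the VLDL receptor, against 15.8% of spots, and above both for 3, against 14.1%. The last 3 were the genes with a ratio over 1.5. The log2 difference had a median of 0.62 over the 6 members tested, of which ApoA-I and APOBEC-1 entered as just described, and -0.04 over all spots tested, where the 5th to 95th percentiles ran from -1.42 to 1.41. No member passed limma at an adjusted p under 0.05, nor did any spot (0%), with adjusted p from 0.957 upward. The unadjusted p was under 0.05 for 19 spots, none of them a member. For a single value, 2 arrays against 2 allow an exact two-sided permutation p of no less than 0.333.

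**Figure D4:**
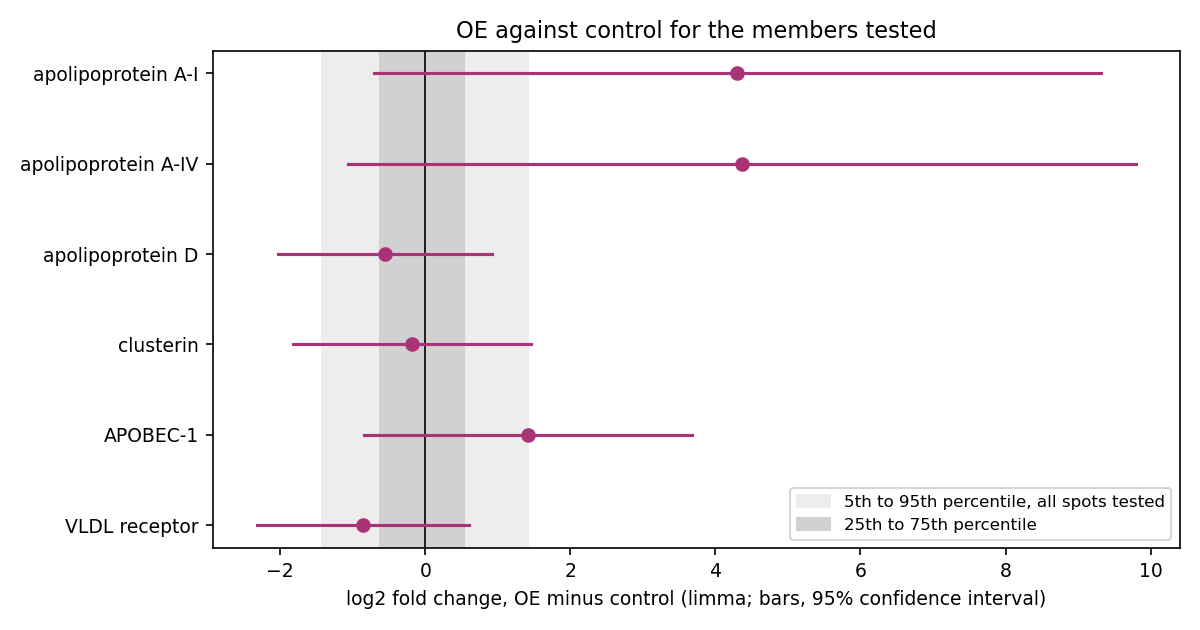
Log2 difference, OE minus control, of the 6 tested members with the limma 95% interval as a bar, over grey bands for the 5th to 95th and the 25th to 75th percentile of all spots tested. The intervals of all 6 members included 0, and the points ran from -0.85 for the VLDL receptor to 4.37 for ApoA-IV.

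The genes that handle lipoprotein lipid beside the members were 14 in number, of which 11 were tested. A ratio under 0.5 was found for 4 of them, against 18.3% of all spots tested, and over 1.5 for none, against 18.9%. Their median log2 difference was -0.78, against -0.04 over all spots, and none passed limma at an adjusted or an unadjusted p under 0.05. These counts depended on control 2. Without it the ratio of 1 of the 11 was under 0.5 and that of 5 over 1.5, and the median was 0.41, against 0.12 over all spots. Without control 1 there were 7 under 0.5 and the median was -1.34, against -0.34 over all spots. Without OE 1 there were 7 under 0.5, and without OE 2 there were 3.

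Lipoprotein lipase, which releases fatty acids from the particles that the VLDL receptor holds at the cell surface, read 115, 746, 342 and 242. Control 2 was the highest and control 1 the lowest, and the ratio was 0.327, or 1.81 against control 1 alone. Sterol carrier protein 2 had the same order of extremes, with 202, 738, 419 and 224 and a ratio of 0.334, or 1.12 against control 1 alone. Mitochondrial HMG-CoA synthase, the enzyme of ketone body synthesis, read 22, 632, 158 and 79 with a ratio of 0.165, or 3.76 against control 1 alone. The direction of all 3 thus turned without control 2. That of the other gene with a ratio under 0.5, the retinoid X receptor RXR-beta, did not. Its ratio was 0.446, or 0.304 against control 1 alone and 0.836 against control 2 alone, and it was under the limit on every array. The related RXR-alpha, detected on control 2 and OE 1, had a ratio of 0.535, or 0.936 against control 1 alone. Lipoprotein lipase, sterol carrier protein 2 and mitochondrial HMG-CoA synthase shared the high level on control 2 with FABP4, and the part of that array was not tested. The HDL receptor SR-BI, which binds ApoA-I, read 111, 120, 143 and 73, with both OE arrays lower after scaling and a ratio of 0.508. The scavenger receptor CD36, which takes up fatty acids and oxidised LDL, read 26, 114, 270 and 112, with overlapping groups and a ratio of 1.30, or 5.08 against control 1 alone and 0.745 against control 2 alone. LCAT, which esterifies the cholesterol of HDL and is activated by ApoA-I, read 14, 16, 18 and 13, under the limit throughout.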

How the data were processed

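RNA of mesenteric fat was hybridised to nylon cDNA arrays, and the authors deposited for each spot an intensity from the Atlas Image software and the same intensity after subtraction of the array background. The adjusted intensity was used. The files also held 12 columns that repeat another array for comparison, and the ratio and difference the authors took from them, and these were not used. Zero values numbered 77 to 197 per array.

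Groups came from the labels. Adjusted intensities were divided by the median of each array, raised to a floor at the 10th percentile of positive scaled values (0.235), and their log2 was fitted with limma 3.58.1 in R 4.3.3 (lmFit, eBayes, Benjamini-Hochberg adjustment over all 922 spots tested). Spots entered if both arrays of a group exceeded the floor, in 1 group or in both. The limits of 0.5 and 1.5 on the ratio of means were those in the methods of the study. Of the 8 spots of the rule, 1 is not reported here, though it stayed in the fit. The other members were described, and the 3 nearest patterns were named for those detected on any array. Intestine, liver, pancreas, adipocyte, macrophage, lymphocyte and lipoprotein lists were taken by keyword, and false hits were left out by name after values were seen. The members and lists were chosen with earlier results of these data known. Other scalings, background corrections, floors and filters, a replicate block and leaving out each array were tried. The number of arrays limits the precision. The labels give no batch. Promoter windows (5 of 7 members, and Fabp1 and Fabp2) came from RefSeq. Figures were drawn with matplotlib 3.10.9.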

Additional observations from a re-analysis of the deposited data

How the results depend on the processing

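Of the log2 differences of single members recomputed under the alternatives, 88 kept their sign and 6 reversed. The 88 include those with the replicate block, with no filter and with a level above the floor on all 4 arrays. These settings leave the difference itself unchanged, so no sign could reverse there. The log2 difference of clusterin became 0.11 with scaling to the genes detected on all 4 arrays, 0.61 with no scaling, 0.31 without background subtraction and 0.34 with normexp, and ran from -0.61 to 0.25 when 1 array was left out. That of ApoD became 0.23 with no scaling. The 0 members with a ratio under 0.5 became 2 with scaling to the housekeeping genes (ApoD and the VLDL receptor) and 1 with the floor at the 1st percentile, where LRP2 entered. The 3 members with a ratio over 1.5 became 1 when a level above the floor on all 4 arrays was required, since ApoA-I and APOBEC-1 then no longer entered, and were 2 with scaling to the housekeeping genes, without background subtraction, with normexp and without control 1, and 4, clusterin included, with no scaling. No spot passed limma at an adjusted p under 0.05 under any of the alternatives run, with 1 to 226 spots at an unadjusted p under 0.05 and a smallest adjusted p of 0.188 to 0.999. The replicate block gave 0 spots at an adjusted p under 0.05 and 17 at an unadjusted one. The deviations of arrays with the same number had a correlation of 0.0495, and the numbers do not pair the rats. The counts of lipoprotein lipid genes without 1 array were an alternative chosen after seeing the data. The authors' table of the series was not run as an alternative, because its rows carry no gene names. For 6 of the 7 members the signal over background limits what can be said. The causes of these changes were not tested.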

Other observations

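Of the 3 genes of the macrophage list, 2 were higher after scaling on both OE arrays than on both control arrays, against 14.1% of all spots tested, and none passed limma (adjusted p = 0.957 for each). The receptor of macrophage colony-stimulating factor, c-fms, read 100 and 46 in control and 315 and 135 in OE, with a ratio of 1.82, and was detected on the OE arrays alone. After scaling it was 7.14 and 5.11 in control and 14.3 and 7.94 in OE. The scaled value on OE 2 would have been under the limit of control 1, 8.57 array medians. The chemokine MIP-1 alpha read 56 and 13 in control and 90 and 102 in OE, all under the limit, with a ratio of 1.85 that was 1.26 against control 1 alone and 3.49 against control 2 alone. The chemokine MIP-2 read 25, 0, 25 and 18 and was under the limit throughout. The summed level of the list was 12.9 and 6.56 array medians in control and 19.5 and 15.0 in OE.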
